A study of Mus musculus with 7 samples.

Results

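Tip60, p400 and Hdac6 occupancy was measured by ChIP-seq around the TSSs of Cdkn1a and 9 other target genes of p53 in mouse ESCs. The genes were taken by symbol (Cdkn1a, Mdm2, Ccng1, Bax, Bbc3, Trp53inp1, Sesn2, Perp, Btg2 and Zmat3), and all 10 were found. They have 11 rows, 1 per TSS in the deposited data, out of 22704 rows with a RefSeq identifier that all 7 libraries share. Cdkn1a has 2 TSSs among them, 4432 bp apart, and every other gene has 1.

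There is 1 library per condition, without replicates. Tip60-H3F ESCs were given GFP KD or Hdac6 KD and Hdac6-H3F ESCs were given GFP KD or Tip60 KD before Flag ChIP. Wild type E14 ESCs, which carry no tag and had no knockdown, give the background of the Flag antibody. A further pair of libraries, GFP KD and Hdac6 KD, was made with an antibody to endogenous p400. H3F is a histidine and Flag tag at the C-terminus of the endogenous gene, and knockdowns used lentiviral shRNAs, 1 hairpin per gene, with cells harvested 72 hr after infection. The library titled as Hdac6 ChIP upon Tip60 KD carries Hdac6 KD in its genotype label. It is called here the library labelled Tip60 KD, and every change of Hdac6 given below depends on that title. ChIP coverage does not show how far a knockdown went, nor which cell type was used.

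p53 is a transcription factor that is stabilised by DNA damage and other stress and switches on genes for cell cycle arrest, apoptosis and repair. Tip60 is a lysine acetyltransferase and p400 an ATPase that exchanges histone variants. Both are subunits of the Tip60-p400 complex, which has been tied to Cdkn1a and other p53 targets in several cell types. Hdac6 is a class II deacetylase that is mostly cytoplasmic in differentiated cells.

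Coverage was summed from −500 to 500 bp around each TSS and converted to reads. A level is given in rpm, promoter reads scaled to 1000000 reads of the library. The libraries held between 9226710 (Hdac6 ChIP, labelled Tip60 KD) and 31375600 reads (p400 ChIP, Hdac6 KD), and the median promoter had between 9 and 21 reads. A ratio of 2 libraries carries a 95% interval (Clopper-Pearson, conditional on the sum of reads). Such an interval covers counting error only. It compares 2 libraries, and the spread between cultures is unknown. A TSS is called changed where the ratio is past 1.5-fold and the interval does not hold 1. Intervals narrow with more reads, so a call comes more easily at a TSS with many reads. The median member had 26 Tip60 and 33 p400 reads upon GFP KD, against 13 and 21 over all rows. Shares called among members and over all rows below are not matched for reads.

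The sequences that several results turn on are shown first, read from the mm9 genome on the strand of the gene. The first is the stretch of a Zmat3 intron from 1275 to 1374 bp downstream of its TSS (chr3:32263213-32263312, minus strand), where Tip60 and p400 reached their highest coverage of any member away from its promoter. Capitals mark a match without mismatch to the p53 consensus, which joins 2 arms of 10 bases.
Zmat3 site: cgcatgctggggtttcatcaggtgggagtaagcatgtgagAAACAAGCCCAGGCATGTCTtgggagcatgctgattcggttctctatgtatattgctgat
The next is the stretch from −380 to −261 bp around the Bbc3 TSS (chr7:16894607-16894726, plus strand), which lies under the highest Hdac6 coverage of any member. It has a GC content of 59.2% and no GC box.
Bbc3 Hdac6 summit: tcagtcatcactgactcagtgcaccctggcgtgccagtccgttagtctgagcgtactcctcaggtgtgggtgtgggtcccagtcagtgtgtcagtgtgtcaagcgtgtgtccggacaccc
Last are the 120 bases upstream of the transcript starts of both Cdkn1a TSSs, whose values are set side by side, and of Bax and Mdm2, where p400 fell most. Capitals mark GC boxes (GGGCGG, or CCGCCC on the other strand) and CCAAT boxes (CCAAT, or ATTGG on the other strand).
Cdkn1a TSS 1 (chr17:29230597-29230716, plus strand): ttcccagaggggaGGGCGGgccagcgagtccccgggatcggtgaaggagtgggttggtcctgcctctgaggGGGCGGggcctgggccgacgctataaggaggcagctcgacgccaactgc
Cdkn1a TSS 2 (chr17:29235032-29235151, plus strand): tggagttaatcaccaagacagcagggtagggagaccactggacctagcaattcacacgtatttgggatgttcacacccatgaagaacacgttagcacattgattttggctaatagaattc
Bax (chr7:52722269-52722388, minus strand): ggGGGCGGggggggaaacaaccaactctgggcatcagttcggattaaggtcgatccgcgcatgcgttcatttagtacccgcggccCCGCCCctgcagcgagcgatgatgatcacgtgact
Mdm2 (chr10:117147815-117147934, minus strand): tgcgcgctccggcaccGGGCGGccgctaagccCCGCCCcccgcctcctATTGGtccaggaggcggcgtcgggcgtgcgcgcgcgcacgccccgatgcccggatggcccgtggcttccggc

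The 120 bases before Cdkn1a TSS 1 had a GC content of 70.0% and 2 GC boxes, and those before TSS 2 a GC content of 44.2% and none. In the 120 bases before the annotated transcript starts, as printed, 8 of the 11 TSSs had a GC box, Mdm2 included. Shares over all rows were taken in the 120 bases before the row's own position, which lies 42 bp downstream of the transcript start at Mdm2. There, GC boxes stood at 7 of the 11 TSSs, against 34.7% of all rows, CCAAT boxes at 5 of 11 against 20.9% of all rows, and the TATA box (TATAAA, both strands) at 0 of 11 against 6.67%. Over the whole promoter the members had a median GC content of 62.9%, with a range from 53.8% (Ccng1) to 67.2% (Bbc3), against a median of 55.2% over all rows. Over all rows, the ratios of several library pairs moved with GC content.

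Upon GFP KD, most of the members carried more Tip60, p400 and Hdac6 reads than the typical promoter. Bax led in Tip60 and p400, Bbc3 in Hdac6. The median member was at the 93.9th percentile of all rows for Tip60, the 83.6th for p400 and the 86.2nd for Hdac6. In the untagged library the median member was at the 79.8th percentile. Coverage comes from bulk cells, so fewer occupied cells and less occupancy per cell cannot be told apart. For Tip60, 6 of the 11 TSSs were above the 90th percentile, as were 4 for p400, 3 for Hdac6 and 3 in the untagged library.

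**Figure D1:**
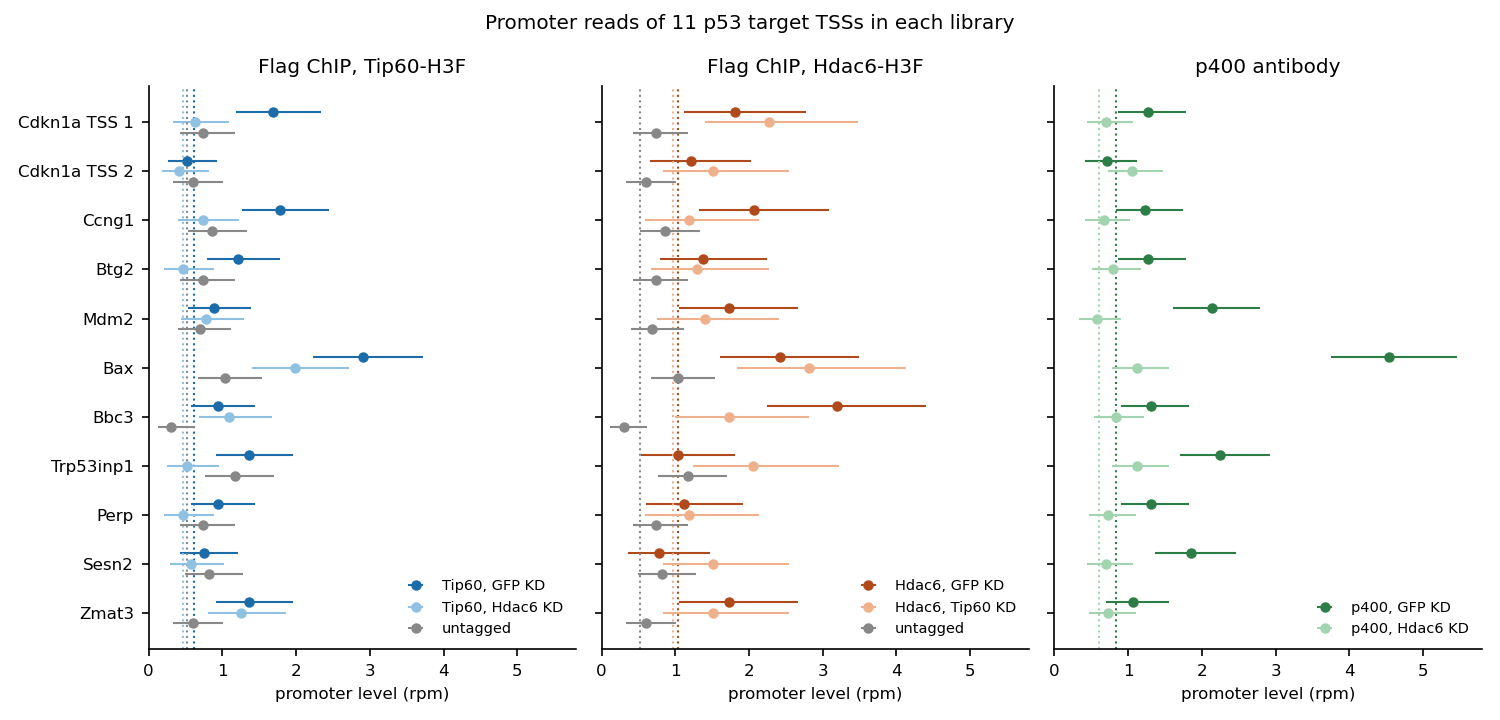
Promoter level in rpm (x axis) at each of the 11 TSSs (rows) in the Tip60 libraries (left), Hdac6 libraries (middle) and p400 libraries (right), with exact 95% Poisson intervals as bars. The untagged library is repeated in grey in both Flag panels, and dotted lines give each library's median over 22704 rows; Bax upon GFP KD stands at 4.54 for p400, and Bbc3 upon GFP KD at 3.19 for Hdac6.

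Cdkn1a encodes p21, an inhibitor of cyclin-dependent kinases and the classical p53 target of the G1 arrest. At TSS 1 (position 29230720 of chromosome 17, plus strand, within 3 bp of an annotated coding transcript start), Tip60 occupancy was 1.69 rpm upon GFP KD and 0.626 upon Hdac6 KD, with 0.734 in untagged cells. The p400 level was 1.26 upon GFP KD against 0.701 upon Hdac6 KD. The Hdac6 level was 1.81 upon GFP KD and 2.28 in the library labelled Tip60 KD. Both tagged factors were above the untagged level upon GFP KD, and Tip60 was near it upon Hdac6 KD. For Hdac6 the ratio over untagged was 2.47, beside a median of 2.15 over rows of like GC content (57.5% to 60%). At TSS 2 (position 29235152, plus strand, also an annotated coding transcript start), the Tip60 level was 0.515 upon GFP KD, 0.418 upon Hdac6 KD and 0.605 in untagged cells. None of these intervals was apart from another. The p400 level at TSS 2 was 0.711 upon GFP KD against 1.05 upon Hdac6 KD. The Hdac6 level at TSS 2 was 1.21 upon GFP KD and 1.52 in the library labelled Tip60 KD. The 2 TSSs share 1 identifier, and in the p400 libraries they were told apart by row order only. Where this order could be tested, on 107 pairs with overlapping windows, it held in 107, but the 2 Cdkn1a windows do not overlap.

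Of the other genes of cell cycle arrest, Ccng1, which encodes cyclin G1 (chromosome 11, position 40568788, minus strand), had 1.78 rpm of Tip60 upon GFP KD, 0.731 upon Hdac6 KD and 0.864 in untagged cells. Its p400 level was 1.22 upon GFP KD against 0.669 upon Hdac6 KD. Its Hdac6 level was 2.07 upon GFP KD and 1.19 in the library labelled Tip60 KD. Btg2, an antiproliferative protein that recruits mRNA deadenylases (chromosome 1, position 135975732, minus strand), had a Tip60 level of 1.22 upon GFP KD, 0.47 upon Hdac6 KD and 0.734 in untagged cells. Its p400 level was 1.26 upon GFP KD against 0.797 upon Hdac6 KD. Its Hdac6 level was 1.38 upon GFP KD and 1.30 in the library labelled Tip60 KD. In Tip60, both genes had the order of Cdkn1a TSS 1, with the untagged library between GFP KD and Hdac6 KD.

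Mdm2, the ubiquitin ligase that degrades p53 and closes the feedback loop (chromosome 10, position 117147772, minus strand), had another pattern. Its p400 level was 2.13 upon GFP KD, at the 98.8th percentile of all rows, and 0.574 upon Hdac6 KD, at the 45.9th. Tip60 stood at 0.89 upon GFP KD, 0.783 upon Hdac6 KD and 0.691 in untagged cells, levels whose intervals all overlap. Hdac6 stood at 1.73 upon GFP KD and 1.41 in the library labelled Tip60 KD. The row at Mdm2 has 1 other row within 2000 bp, as have those of Bax and Sesn2, so neighbouring TSSs may share these reads.

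Among the genes of apoptosis, Bax, which opens pores in the outer mitochondrial membrane (chromosome 7, position 52722268, minus strand), had the most Tip60 and p400 of all members. Its p400 level was 4.54 rpm upon GFP KD (interval from 3.75 to 5.45) and 1.12 upon Hdac6 KD (0.777 to 1.55). Its Tip60 level was 2.91 upon GFP KD (2.23 to 3.72), 1.98 upon Hdac6 KD (1.40 to 2.72) and 1.04 in untagged cells (0.664 to 1.54). The intervals of both p400 levels did not overlap, while those of both Tip60 levels did. Hdac6 at Bax was 2.42 upon GFP KD and 2.82 in the library labelled Tip60 KD.

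Bbc3, also known as Puma, a BH3-only activator of Bax (chromosome 7, position 16894987, plus strand), had the most Hdac6 of all members, with 3.19 rpm upon GFP KD (interval from 2.25 to 4.40). The level was 1.73 in the library labelled Tip60 KD (0.991 to 2.82) and 0.302 in untagged cells (0.122 to 0.623), the lowest untagged level of any member. Tip60 at Bbc3 was 0.937 upon GFP KD and 1.10 upon Hdac6 KD. The p400 level was 1.30 upon GFP KD and 0.829 upon Hdac6 KD.

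Trp53inp1, a stress-induced nuclear protein that acts with p53 in apoptosis (chromosome 4, position 11083588, plus strand), had 2.25 rpm of p400 upon GFP KD and 1.12 upon Hdac6 KD. Its Tip60 level fell from 1.36 to 0.522, but the untagged library held 1.17, at the 98.6th percentile of all rows and the highest of any member. Hdac6 at Trp53inp1 was 1.04 upon GFP KD and 2.06 in the library labelled Tip60 KD. Perp, a membrane protein of desmosomes with a part in apoptosis (chromosome 10, position 18564877, plus strand), had a p400 level of 1.30 upon GFP KD and 0.733 upon Hdac6 KD. Its Tip60 level was 0.937 upon GFP KD, 0.47 upon Hdac6 KD and 0.734 in untagged cells, and its Hdac6 level 1.12 upon GFP KD and 1.19 in the library labelled Tip60 KD. The intervals of all 3 Flag levels of Perp with Tip60 overlapped.

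Of the genes of the stress response, Sesn2, which restrains mTORC1 signalling (chromosome 4, position 132066371, minus strand), had a Tip60 level upon GFP KD that was not called above the untagged library, as Mdm2 had. It had a p400 level of 1.86 upon GFP KD, at the 97.2nd percentile, and 0.701 upon Hdac6 KD, beside Tip60 levels of 0.75 and 0.574 and an untagged level of 0.821. Its Hdac6 level was 0.777 upon GFP KD, the lowest of any member, and 1.52 in the library labelled Tip60 KD. Zmat3, a zinc finger protein that binds RNA (chromosome 3, position 32264587, minus strand), had 1.36 rpm of Tip60 upon GFP KD, 1.25 upon Hdac6 KD and 0.605 in untagged cells. Its promoter p400 level was 1.07 upon GFP KD against 0.733 upon Hdac6 KD, and its Hdac6 level 1.73 upon GFP KD and 1.52 in the library labelled Tip60 KD.

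Against the untagged library, Tip60 upon GFP KD was higher past 1.5-fold at 6 of the 11 TSSs, beside 31.5% of all rows, and called higher at 5 of 11, beside 9.49% of all rows. The 5 were Bbc3 with a ratio of 3.10 (interval from 1.26 to 8.67), Bax with 2.80 (1.72 to 4.69), Cdkn1a TSS 1 with 2.30 (1.26 to 4.36), Zmat3 with 2.25 (1.15 to 4.60) and Ccng1 with 2.06 (1.17 to 3.74). Trp53inp1, Mdm2, Perp, Btg2, Sesn2 and Cdkn1a TSS 2 were not called, with ratios from 0.852 to 1.66. The median member had a log2 ratio of 0.73, against 0.22 over all rows.

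Hdac6 upon GFP KD was higher than the untagged library past 1.5-fold at 9 of the 11 TSSs, beside 62.9% of all rows, and called higher at 6, beside 38.1%. The ratio of Bbc3 was 10.6 (interval from 4.65 to 28.1), and those of the 5 other called TSSs (Zmat3, Mdm2, Cdkn1a TSS 1, Ccng1 and Bax) lay between 2.33 and 2.85. Over all rows this ratio rose with GC content, from a median of 0.461 at a GC content between 32.5% and 35% to 5.83 between 75% and 77.5%. Set against rows of the same GC content, only 1 of the 11 TSSs was past 1.5-fold, beside 21.3% of all rows, and the median log2 ratio of the members turned from 1.22 to −0.16. Reads in the Hdac6 libraries span 148 to 149 bp and in the untagged library 299 bp, so these files were not made in the same way. The same GFP KD libraries serve as the controls of the knockdown comparisons that follow.

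Upon Hdac6 KD, Tip60 was called lower at 4 members. Their levels, background included, fell by 59.0% to 62.9%. Of the 11 TSSs, 5 were lower past 1.5-fold, beside 34.4% of all rows, and 4 were called lower, beside 9.6% of all rows. The median row has fewer reads than the median member, so the shares called are not on equal terms. Cdkn1a TSS 1 had 36 reads upon GFP KD against 12 upon Hdac6 KD, a ratio of 0.371 (interval from 0.176 to 0.73). Btg2 had 26 and 9 reads and a ratio of 0.386 (0.159 to 0.849). Trp53inp1 had 29 and 10 reads and a ratio of 0.384 (0.167 to 0.811). Ccng1 had 38 and 14 reads and a ratio of 0.41 (0.205 to 0.775). By role these were Cdkn1a TSS 1, Ccng1 and Btg2 of cell cycle arrest and Trp53inp1 of apoptosis, while of the other cell cycle arrest genes of the p53 pathway, described further on, 0 of 7 TSSs were called lower. Of the 4 called TSSs, Btg2 and Trp53inp1 were among those where Tip60 upon GFP KD was not called above the untagged library. At all 4, the level upon Hdac6 KD was below the untagged level, from 0.731 against 0.864 rpm at Ccng1 to 0.522 against 1.17 at Trp53inp1. How much of each fall is Tip60 and how much is background that differs between libraries cannot be told apart.

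The other 7 TSSs were not called. Perp had a ratio of 0.501 (interval from 0.201 to 1.15) and Bax, with the most reads, 0.683 (0.443 to 1.04). Mdm2 had a ratio of 0.879, Zmat3 0.922, Sesn2 0.766 and Cdkn1a TSS 2 0.81. Bbc3 was the only one above 1, at 1.17 (0.603 to 2.27). The median member had a log2 ratio of −0.55, against −0.26 over all rows, and 8 of the 11 TSSs lay below the median of all rows. Scaling both libraries to equal totals moved every Tip60 log2 ratio up by 0.15, and with rows of the same GC content as reference the 4 called members kept ratios between 0.467 and 0.504. Mdm2, Sesn2 and Zmat3 changed direction under at least 1 of these scalings.

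**Figure D2:**
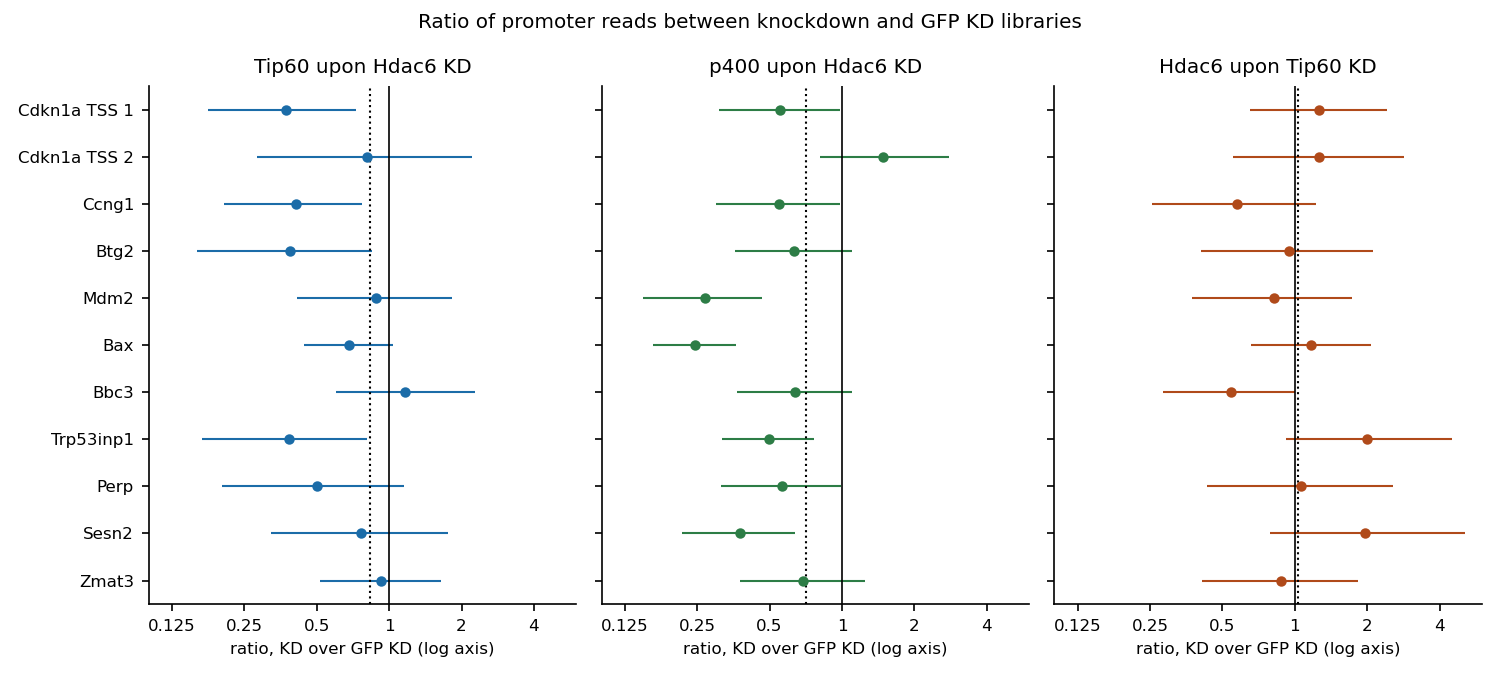
Ratio of promoter levels in rpm, knockdown over GFP KD, on a log axis for the 11 TSSs, with 95% Clopper-Pearson intervals as bars. The solid line marks 1 and the dotted line the median ratio of all tested rows (0.835 for Tip60, 0.71 for p400 and 1.03 for Hdac6); Bax and Mdm2 have the lowest p400 ratios, and every Hdac6 interval holds 1.

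Tip60 was also counted on either side of the TSS. Downstream, from −100 to 300 bp, the Tip60 level was lower upon Hdac6 KD at all 11 TSSs, though at Cdkn1a TSS 2 and Sesn2 by 1 read, from 4 to 3. Of the 9 TSSs with at least 10 reads in both libraries together, 9 were lower, beside 61.8% of all rows, with a median log2 ratio of −1.51 against −0.30 over all rows. Upstream, from −600 to −200 bp, 6 of the 11 TSSs were lower, with a median log2 ratio of −0.17. Of the 9 upstream with enough reads, which leaves out Cdkn1a TSS 2 and Perp, 4 were lower, beside 56% of all rows, and the median was 0.31, against −0.11 over all rows. The 4 called members had fewer reads on both sides. Cdkn1a TSS 1 went from 19 to 6 reads downstream and from 13 to 5 upstream, and Ccng1 from 16 to 6 downstream and from 12 to 4 upstream. Zmat3 went from 14 to 4 reads downstream and from 13 to 16 upstream. Bax went from 39 to 20 downstream and held 5 and 6 reads upstream. These counts are small, and the difference between both sides was not tested. Upon GFP KD, more reads lay downstream than upstream at 6 of 11 TSSs for Tip60, beside 49% of all rows, at 7 of 11 for p400, beside 58.8%, and at 7 of the 10 with enough reads for Hdac6, beside 66.9%.

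**Figure D3:**
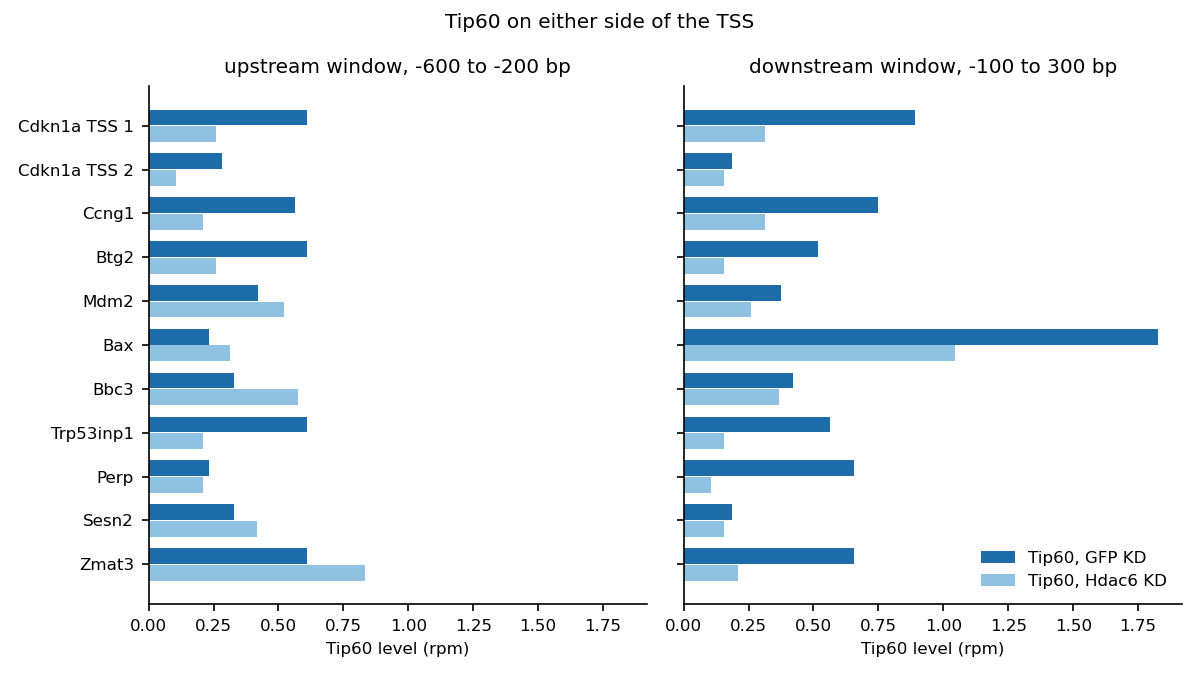
Tip60 level in rpm (bars from 0) in the window from −600 to −200 bp (left) and from −100 to 300 bp (right) at the 11 TSSs, upon GFP KD (dark) and Hdac6 KD (light). The downstream bars are shorter upon Hdac6 KD at all 11 TSSs, while upstream bars are longer upon Hdac6 KD at Bax, Mdm2, Bbc3, Sesn2 and Zmat3.

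Upon Hdac6 KD, p400 fell at 7 of the 11 TSSs, most at Bax and Mdm2. Past 1.5-fold were 9 TSSs, beside 44.8% of all rows, and the 7 called lower stood beside 25.4% of all rows. Bax had 115 reads upon GFP KD against 35 upon Hdac6 KD, a ratio of 0.245 (interval from 0.163 to 0.361). Mdm2 had 54 and 18 reads and a ratio of 0.269 (0.148 to 0.466). Sesn2 had 47 and 22 reads and a ratio of 0.378 (0.217 to 0.639). Trp53inp1 had 57 and 35 reads and a ratio of 0.495 (0.316 to 0.768). Ccng1, Cdkn1a TSS 1 and Perp had ratios from 0.546 to 0.562, with upper bounds between 0.982 and 0.987.

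Btg2, Bbc3 and Zmat3 had p400 ratios from 0.63 to 0.687 with intervals that held 1, and Cdkn1a TSS 2 had 18 and 33 reads, a ratio of 1.48 (interval from 0.809 to 2.79). The median member had a log2 ratio of −0.85, against −0.49 over all rows. This ratio too moved with GC content over all rows, from 1.01 at a GC content of 45% to 47.5% to 0.582 at 62.5% to 65%. Against rows of the same GC content, 3 TSSs stayed past 1.5-fold (Bax at 0.389, Mdm2 at 0.474 and Sesn2 at 0.649), beside 16.7% of all rows, Cdkn1a TSS 1 was at 0.878, and Btg2, Bbc3 and Zmat3 turned to above 1. With equal totals 5 TSSs were past 1.5-fold, beside 28.8% of all rows, since that scaling moves every p400 log2 ratio up by 0.27.

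The change of Tip60 and of p400 upon Hdac6 KD was then compared at each TSS. At Mdm2 and Bax the log2 change of Tip60 exceeded that of p400 by 1.71 (interval from 0.47 to 2.95) and 1.48 (0.68 to 2.27), where all rows had a median difference of 0.22. At the other 9 TSSs the interval of the difference held 0. Intervals of these differences are normal approximations from a standard error of the read counts, unlike the exact ones of single ratios. The share of all rows whose interval leaves out 0 is not given here. Tip60 at Mdm2 upon GFP KD was not called above the untagged library, with a ratio of 1.29 (interval from 0.627 to 2.68). Tip60 was read through the Flag tag and p400 through an antibody to the protein, so factor and antibody cannot be told apart.

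**Figure D4:**
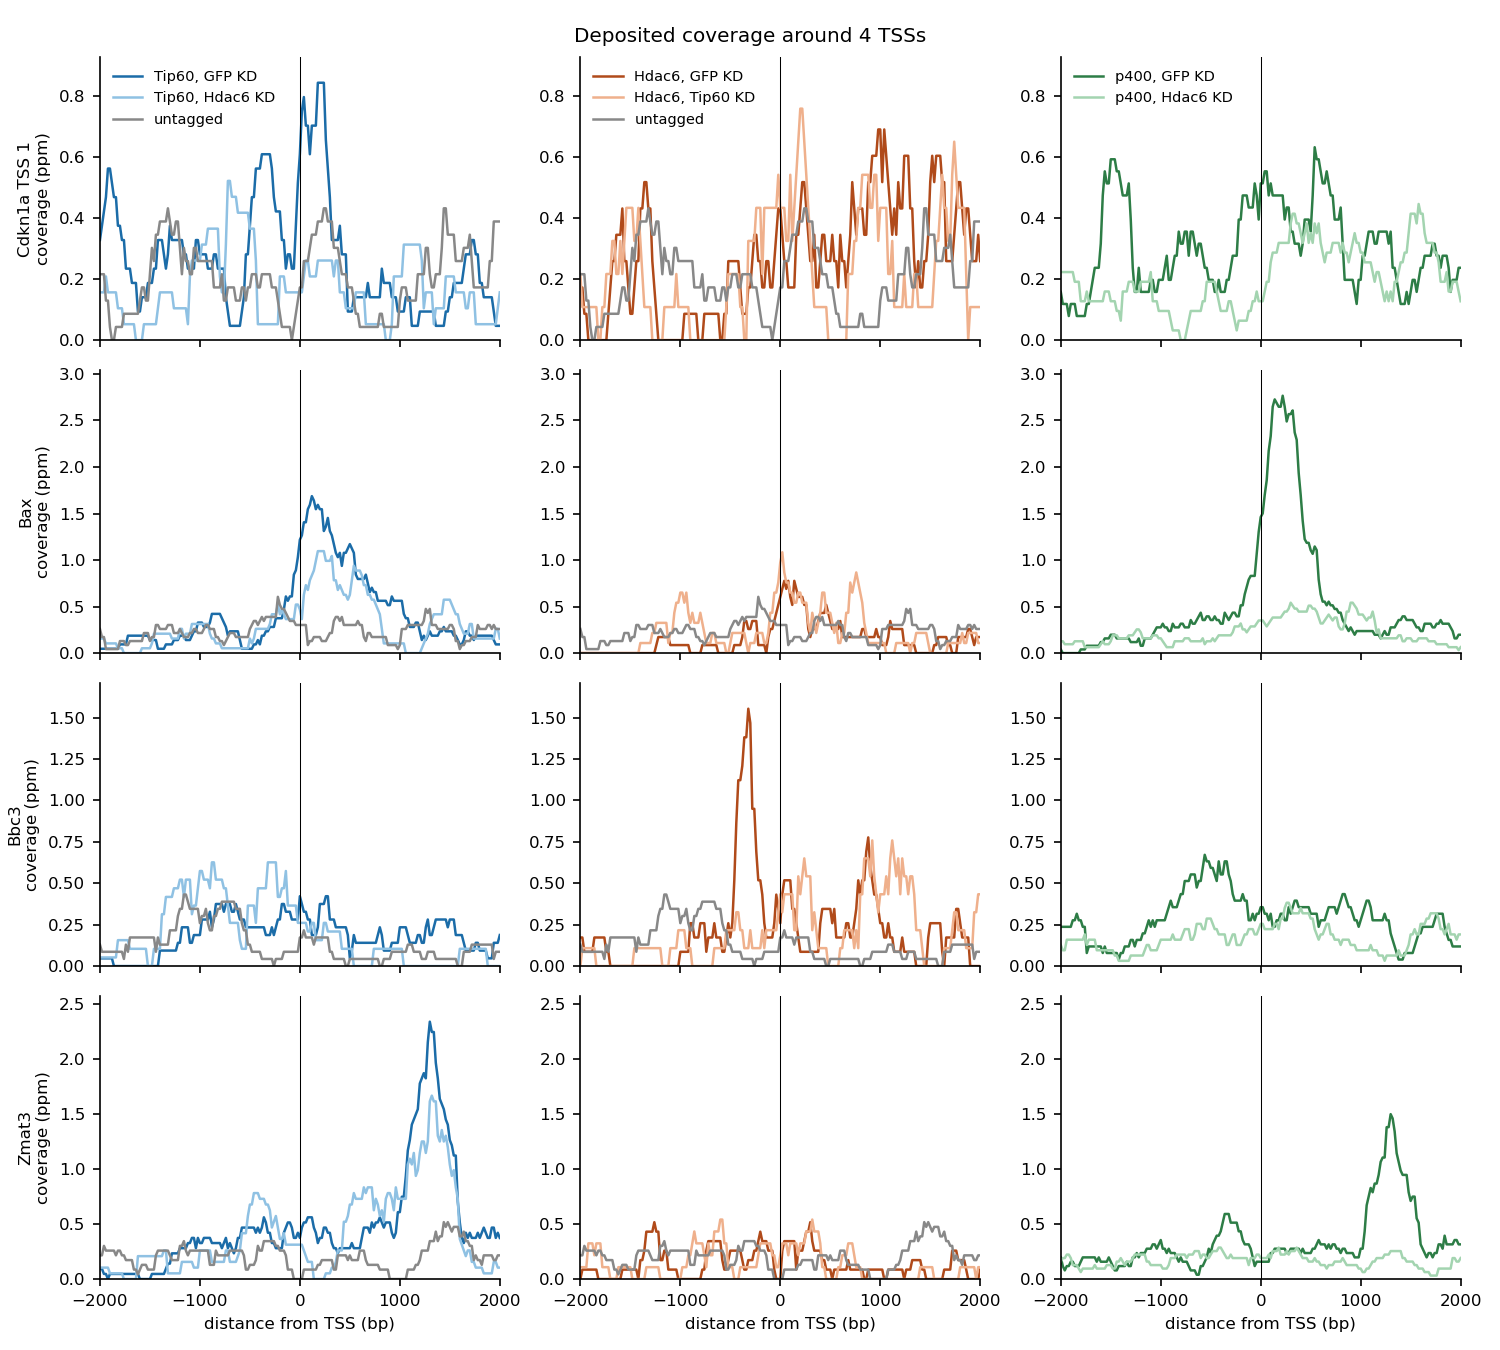
Deposited coverage in ppm (y axis, 1 scale per row of panels) from −2000 to 2000 bp around Cdkn1a TSS 1, Bax, Bbc3 and Zmat3 in the Tip60 (left), Hdac6 (middle) and p400 libraries (right), with the untagged library in grey in both Flag columns. Tip60 and p400 form a summit at 120 and 220 bp at Bax, Hdac6 one at −320 bp at Bbc3, and Tip60 and p400 a shared one at 1300 bp at Zmat3.

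In the library labelled Tip60 KD, no member was called changed in Hdac6. Past 1.5-fold, 2 of the 11 TSSs were lower, beside 15.5% of all rows, and 2 were higher, beside 18.2%. With the interval, 0 were lower, beside 1.23% of all rows, and 0 higher, beside 1.96%. The nearest to a call was Bbc3, with 37 reads upon GFP KD and 16 in the labelled Tip60 KD library, a ratio of 0.543 (interval from 0.282 to 1.0005). Ccng1 had 24 and 11 reads and a ratio of 0.576 (0.254 to 1.22), while Trp53inp1 had 12 and 19 and a ratio of 1.99 (0.916 to 4.49), and Sesn2 had 9 and 14 and a ratio of 1.95 (0.787 to 5.12). Both Cdkn1a TSSs had a ratio of 1.26, with intervals from 0.653 to 2.42 at TSS 1 and from 0.555 to 2.84 at TSS 2. At these depths, changes of 1.5-fold at a single TSS were not detectable. The median member had a log2 ratio of 0.09, against 0.04 over all rows.

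The Hdac6 reads of Bbc3 were not spread over the promoter. Within 150 bp of the point 320 bp upstream of the TSS, around the sequence shown above, were 23 reads upon GFP KD, and 99.97% of all rows had as many or fewer in that window. There were 3 reads in the library labelled Tip60 KD, a ratio of 0.164 (interval from 0.0315 to 0.542), and 1 in untagged cells. This window was chosen at the summit of the GFP KD library, which favours a lower value in any other library, so the ratio is a description. The p400 library had 13 reads there upon GFP KD against 5 upon Hdac6 KD, and Tip60 had 5 and 9. No other member had Hdac6 coverage above 10 reads within its promoter.

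Matches to the p53 consensus were searched from −2000 to 2000 bp around each TSS on both strands, which are equivalent for this palindromic motif. Its arms were allowed a spacer of at most 1 base and at most 3 mismatches in all, with the C and G at the core of each arm fixed. The definition was set after the coverage of Zmat3 had been seen. A site was found in 8 of the 11 windows, against 33.3% of all rows at that limit, and none was found for Sesn2, Btg2 and Cdkn1a TSS 2. A site with at most 1 mismatch stood in 3 of the 11 windows, against 1.66% of all rows, and one without mismatch in 2, against 0.181%. The best sites of 4 members are shown here, since coverage at them is set beside that of Zmat3. They differ in quality, with 1 mismatch at both Ccng1 sites, 2 at Bax, 3 at Mdm2, and 0 at Trp53inp1 but with a spacer of 1 base. Lower case marks mismatches and the spacer.
Ccng1 (chr11:40568964-40568983, minus strand, −195 bp from the TSS): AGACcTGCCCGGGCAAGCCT
Ccng1 (chr11:40568438-40568457, minus strand, intron, 331 bp): AcGCAAGCCCGGGCTAGTCT
Trp53inp1 (chr4:11082259-11082279, plus strand, −1329 bp): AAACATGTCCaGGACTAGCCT
Bax (chr7:52721944-52721963, minus strand, exon, 305 bp): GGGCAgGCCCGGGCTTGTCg
Mdm2 (chr10:117147161-117147180, minus strand, exon, 592 bp): GGtCAAGTTgGGACAcGTCC

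The Zmat3 site, 1315 to 1334 bp downstream of the TSS in an intron, had the most Tip60 of all sites of the members, and after the Bax site the most p400. Tip60 coverage there was 48 reads deep upon GFP KD against 32 upon Hdac6 KD, and p400 coverage 37 upon GFP KD and 8 upon Hdac6 KD. Hdac6 coverage was 2 reads upon GFP KD and 0 in the library labelled Tip60 KD, and the untagged coverage 8. The summits of Tip60 and p400 upon GFP KD were 24.5 bp from the centre of the site, within 2 steps of the 20 bp grid. Within 250 bp of the centre, 58 Tip60 reads upon GFP KD stood against 12 in the untagged library, a ratio of 5.24 (interval from 2.78 to 10.7). For Tip60 upon GFP KD, 3 of the 22704 rows had more reads in the window at this distance from the TSS, and for p400 4 rows.

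Upon Hdac6 KD, the p400 reads within 250 bp of the Zmat3 site went from 42 to 10, a ratio of 0.192 (interval from 0.0859 to 0.389). The Tip60 reads went from 58 to 39, a ratio of 0.749 (0.486 to 1.14). As at Bax and Mdm2, the p400 ratio was below the Tip60 ratio. This is also the common direction at promoters, where the median log2 difference of all rows was 0.22. This window was chosen for its signal upon GFP KD, so both ratios are descriptions.

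The downstream Ccng1 site had Tip60 coverage of 20 reads upon GFP KD against 10 upon Hdac6 KD, with 8 in untagged cells, and the upstream one 3 and 1, with 6 in untagged cells. The spaced site of Trp53inp1, without mismatch, had 5 Tip60 and 8 p400 reads upon GFP KD and 10 reads in untagged cells. The Bax site lay beside the promoter summit, with 27 Tip60 and 66 p400 reads upon GFP KD. The Mdm2 site had 2 Tip60 and 15 p400 reads upon GFP KD and 9 in untagged cells. Cdkn1a TSS 1 had intron sites with 3 mismatches from 560 and 723 bp, which are not printed. Each had 3 Tip60 reads upon GFP KD, against 9 and 10 at 500 bp from the site, and they had 15 and 10 p400 reads. The sites of Bbc3 and Perp, with 3 mismatches, had 7 and 1 Tip60 reads upon GFP KD. Over all rows, 14 windows held a site without mismatch or spacer, Zmat3 included. Their median coverage upon GFP KD was 6 reads for Tip60 and 6 for p400, against 4.75 and 6 at 500 bp from the site. Next to Zmat3 came Hat1, a histone acetyltransferase gene, with 18 Tip60 and 29 p400 reads upon GFP KD and 4 p400 reads upon Hdac6 KD.

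**Figure D5:**
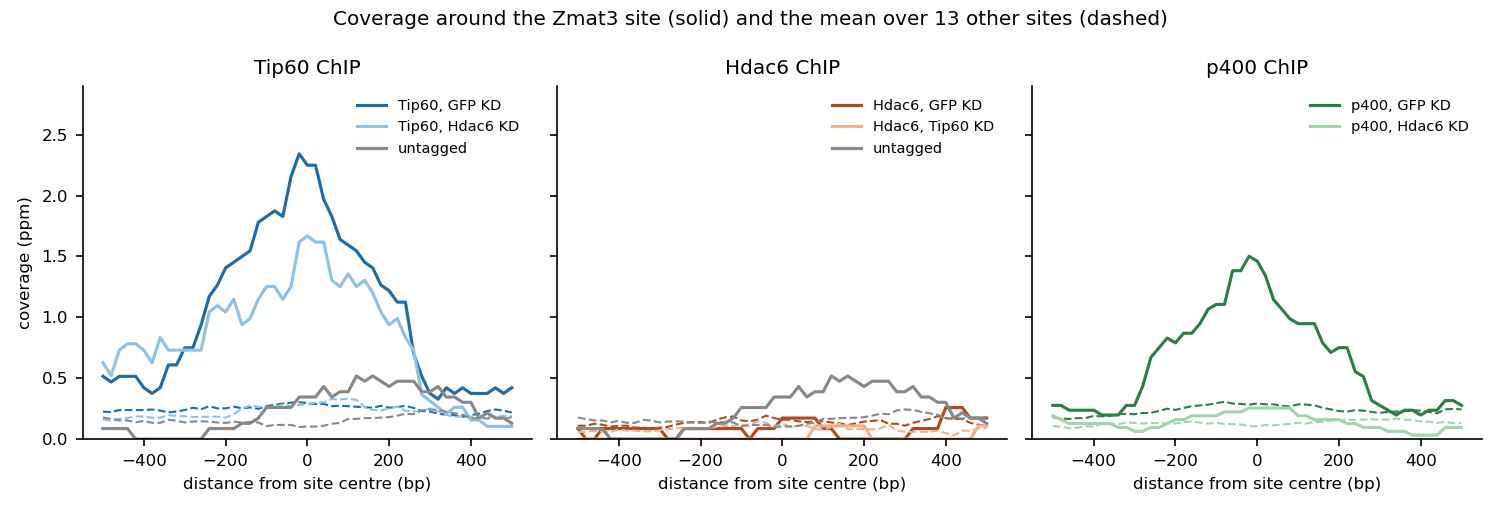
Coverage in ppm against the distance from the centre of the p53 consensus match at Zmat3 (solid lines) and the mean over the 13 other windows with a match without mismatch or spacer (dashed lines), in the Tip60 (left), Hdac6 (middle) and p400 libraries (right). Tip60 stands out in both libraries and p400 upon GFP KD, while Hdac6 coverage at the centre is 2 reads or fewer.

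The other genes of the p53 pathway, 37 genes with 51 distinct TSSs, were described in the same way. TSSs of 1 gene that lie close together share reads. The genes Fas, Trp53, Atr and Pml were not analysed here. Upon Hdac6 KD, Tip60 was called lower at 7 of 51 TSSs, beside 9.6% of all rows, and p400 at 18 of 51, beside 25.4%. The median log2 ratio of the wider list was −0.55 for Tip60 and −0.70 for p400, against −0.26 and −0.49 over all rows. These shares and medians were not tested against the other rows. In the library labelled Tip60 KD, Hdac6 was called lower at 2 of 47 TSSs, beside 1.23% of all rows, and higher at 2, beside 1.96%. Over untagged, Tip60 was called higher at 8 of 51, beside 9.49%, and Hdac6 at 22 of 51, beside 38.1%.

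By role, p400 was called lower at 7 of the 10 TSSs of apoptosis genes, 3 of 7 of cell cycle arrest, 3 of 5 of DNA repair and nucleotide supply, 2 of 13 of metabolism and stress, and 3 of 16 of the p53 family and its regulators, beside 25.4% of all rows. Tip60 was called lower at 0 of the 7 TSSs of cell cycle arrest, 2 of 10 of apoptosis, 0 of 5 of DNA repair and nucleotide supply, 4 of 13 of metabolism and stress, and 1 of 16 of the p53 family and its regulators, beside 9.6%. The highest p400 level upon GFP KD belonged to Aen, an apoptosis-enhancing nuclease, with 3.79 rpm, and the lowest to Trp63, a p53 family member, with 0.237. At Aen, p400 had ratios of 0.232 and 0.26 at its 2 TSSs upon Hdac6 KD (intervals from 0.145 to 0.359 and from 0.168 to 0.394). Eda2r, a death receptor gene, had a p400 ratio of 0.19 (0.0759 to 0.418) and Rps27l, a ribosomal protein-like p53 target, 0.262 (0.162 to 0.413).

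For Tip60 upon Hdac6 KD, the 4 called TSSs with the largest log2 ratio in size rested on few reads. Ephx1, an epoxide hydrolase gene, went from 15 to 4 reads, with a ratio of 0.297 (interval from 0.0717 to 0.932). The called TSS of Trp73, a p53 family member, went from 24 to 7, with a ratio of 0.325 (0.118 to 0.777). That of Steap3, a metalloreductase gene, went from 19 to 6, with a ratio of 0.352 (0.115 to 0.916). The other TSS of each gene was not called, with ratios of 0.464 at Trp73 and 0.626 at Steap3. One TSS of Ak1, the gene of adenylate kinase, went from 9 to 20 reads, a ratio of 2.47 (1.08 to 6.17). The 4 other called TSSs, named after their values were seen, had more reads upon GFP KD. Aen went from 64 to 24 reads at one TSS (ratio 0.418, interval from 0.25 to 0.677) and from 66 to 27 at the other (0.456, 0.28 to 0.723), Rps27l from 56 to 22 (0.438, 0.254 to 0.728), and another TSS of Ak1 from 25 to 10 (0.445, 0.191 to 0.96). For Hdac6 in the library labelled Tip60 KD, the called TSS of Ak1 went from 6 to 14 reads, as did Plk3, a kinase gene. Each had a ratio of 2.93 (interval from 1.06 to 9.30). The other Ak1 TSSs, with ratios of 0.897 and 0.886, were not called. Tigar, a regulator of glycolysis, had a ratio of 0.419 (0.163 to 0.963) and Rrm2b, a ribonucleotide reductase subunit, 0.46 (0.208 to 0.945).

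The promoters most like Cdkn1a TSS 1 over the 7 libraries were those of Slc7a6os, Aldh2, Ftsj3, Sirt6 and Tha1, none of them in either list. Likeness was the Euclidean distance of log2 promoter signal, each library centred on its median, and the 5 distances were between 0.34 and 0.397. With a median of 9 to 21 reads per promoter, such distances are also set by counting error. Of the members, Ccng1 was the nearest, at 0.662, with 88 rows nearer, then Btg2, at 0.831, with 340 rows nearer. Bax was the farthest, at 2.53, and Cdkn1a TSS 2 stood at 1.82, with 9006 rows nearer to TSS 1.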

How the data were processed

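The deposited values are coverage signal in ppm around each TSS, from −2000 to 2000 bp at 201 positions 20 bp apart. Following their methods, the authors mapped single-end reads to mm9 with Bowtie (version not given in the sources used here) with at most 1 mismatch, extended them and normalized the coverage; their processing notes also name CASAVA 1.8.2. The methods state an extension to 150 bp, while isolated reads in the files span 299 bp, or 148 to 149 bp in both Hdac6 libraries. Flag libraries have 36733 rows and p400 libraries have the 22704 with a RefSeq identifier.

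The members and lists were chosen with earlier results of these data known. Values are whole multiples of a step, which gave each library's depth. Reads are summed coverage divided by the step and the span, rounded, and intervals cover counting error only, with PCR copies not independent molecules. Rows needed 10 reads in both libraries together. With 1 library per condition no test between conditions was made. Named were all members, and of the wider list the TSSs called in a knockdown comparison, at most 4 per comparison by size, plus the highest and lowest p400 level. Sequences and GC content came from the mm9 genome and exons from its GENCODE annotation. Python 3.11.15, numpy, scipy and pandas were used, and the scripts were tested on simulated data. The alternatives changed the window, scaling, minimum of reads, fold and TSSs per gene.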

Additional observations from a re-analysis of the deposited data

Results flagged for a closer look

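At Mdm2 and Bax, Tip60 and p400 differed in their change upon Hdac6 KD, with approximate counting intervals of the difference that did not hold 0. The log2 change of Tip60 minus that of p400 was 1.71 at Mdm2 and 1.48 at Bax, against a median of 0.22 over all rows. The share of all rows past the same rule is not given here. Tip60 at Mdm2 upon GFP KD was not called above the untagged library. Tip60 was measured in tagged ESCs with the Flag antibody and p400 with an antibody to the protein, with 1 library per condition.

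At Zmat3, a signal lay outside the promoter window used for all comparisons, with no higher coverage within a read length and at least 3 times the untagged coverage scaled to the same depth. The coverage was 50 reads at 1300 bp for Tip60 upon GFP KD and 32 reads at 1320 bp for Tip60 upon Hdac6 KD. The untagged coverage, scaled to these libraries, was 7.38 and 6.62 reads at those points. The p400 libraries were not set against it, since it is a Flag ChIP.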

How the results depend on the processing

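Each count and median was computed again under the other windows, scalings, minimums and TSS choices, and 106 values stayed within the spread of the members or within 1.5 times the count, 18 moved further and 3 changed sign. For Tip60 upon Hdac6 KD, the median log2 ratio was −1.508 from −100 to 300 bp and reversed to 0.3073 from −600 to −200 bp, each over the 9 TSSs with enough reads. For p400, 5 TSSs were past 1.5-fold with equal totals, beside 28.8% of all rows. With rows of the same GC content as reference 3 were, beside 16.7%, and the median was −0.1869. Past 2-fold were 4, beside 21.8%. For Hdac6 in the library labelled Tip60 KD, the lower count was 1 in each of the 4 other windows. The share of all rows there was between 12.0% and 21.6%. The higher count was 1 from −600 to −200 bp, beside 23.7% of all rows. With the flank signal subtracted both counts were 4, beside 29.7% lower and 33.0% higher. Past 2-fold both were 0, beside 5.65% and 6.12%. The median reversed to −0.4788 from −600 to −200 bp, where 5 TSSs had enough reads. For Hdac6 over untagged, the count was 4 of the 8 TSSs with enough reads from −600 to −200 bp, beside 51.8% of all rows. With rows of the same GC content as reference it was 1, beside 21.3%, and the median reversed to −0.1635. The median was 1.651 from −100 to 300 bp, against 1.41 over all rows. With the flank signal subtracted it was 2.062, below the 2.32 of all rows. Windows with fewer TSSs change the count by that loss as well as by position. No other cause was tested. No paired analysis was possible because each condition has 1 library, and none could be left out.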
